A study of Rattus norvegicus with 16 samples.

Results

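The genes described here encode the proteins of the cytosolic ribosome, measured in primary rat hepatocytes treated with SQ1 or pravastatin. They were chosen by symbol: Rpl or Rps followed by a number, or Rplp0, Rplp1, Rplp2 or Rpsa, leaving out S6 kinases and pseudogenes. Of 81 such symbols with a probe, 79 passed the signal filter, out of 20782 genes tested in all. Each of the 79 was well above background in all 32 channels. The filter asked for 6, and the symbols that did not pass were Rpl27l2, with 2 channels, and Rpl3l, with 0. The 79 hold 29 proteins of the small (40S) subunit, 44 of the large (60S) subunit and 6 paralogs or related genes outside the core set (Rpl22l1, Rpl36al1, Rpl37l1, Rpl39l1, Rps12l4 and Rps4y2). Of 77 core subunits listed, 73 were tested, and those not tested include Rps9, Rpl26 and Rpl37, for which no probe was named here.

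Cultures came from male Sprague Dawley rats and, starting 48 h after plating, received 100 µM SQ1, 30 µM pravastatin or no treatment for 48 h. Pravastatin is a statin, which blocks the enzyme that makes mevalonate. SQ1 is called by the name the labels give. Each of the 16 two-colour arrays set RNA from 1 treated culture against RNA from 1 untreated culture, with 8 arrays per drug. On 4 of the 8 the treated RNA carried the green dye A555, and on the other 4 it carried the red dye A647. The submitters call the 8 biological replicates, but the labels do not say whether they came from separate animals, so p-values here measure only the spread between these cultures. Same-numbered arrays of the 2 drugs carry the same untreated culture number, so by number the drugs share 8 untreated cultures. Correlations between those arrays do not settle whether they do. The arrays fall into 2 groups by untreated culture number, called culture series here, a name the labels do not give. These coincide with 2 scan groups, so culture and scan cannot be told apart between them. Each slide holds 1 drug, so drug and slide cannot be told apart either.

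As a check of the labels, all 19 cholesterol synthesis genes rose with each drug, with a median log2 change of 2.68 for SQ1 and 2.78 for pravastatin, which does not tell the drugs apart. The 15 hepatocyte markers were all measured in every channel. They fell in 15 of 15 cases with SQ1 (median log2 -0.66), whereas with pravastatin 12 fell and 2 rose (median -0.30). Of 14 macrophage markers, 14 fell with each drug (medians -0.56 and -0.83). All 10 stellate cell and fibroblast markers fell with SQ1 (median -0.60), and with pravastatin 3 fell and 1 rose (median -0.066). Of 4 endothelial markers tested out of 8 listed, 3 fell with SQ1 and 1 with pravastatin, and of 6 cholangiocyte markers 1 rose and 3 fell with SQ1, against 2 and 2 with pravastatin. Their part in the values below was not tested, and in such bulk RNA fewer cells of a type and less RNA per cell cannot be told apart. In the deposited value table each column labelled for one drug matched the scanner data of the array with its number in the opposite drug group. Which drug a value belongs to therefore rests on the scanner files and the labels they stand under.

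Ribosomal proteins assemble with ribosomal RNA in the nucleolus into the small subunit, which reads the message, and the large subunit, which joins the amino acids. Their messages are among the most abundant in the cell. They carry a 5′ terminal oligopyrimidine (TOP) motif, a C at the first transcribed base followed by a run of C and T, through which mTORC1 signalling controls their translation. Translation itself was not measured on these arrays.

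The transcription starts of the genes the results turn on are printed first, because the shared pyrimidine run is the feature that defines this class of message. RefSeq's promoter table for assembly GRCr8 held an entry for 64 of the 79. Among the 15 others were Rpl15, Rpl23a, Rpl27, Rpl30, Rpl32, Rpl37l1, Rpl7, Rpl8, Rps20, Rps25 and Rps29. Each line gives 30 bases of the gene's own strand, 15 before the annotated start and 15 from it onwards. Capitals mark the run of at least 5 pyrimidines, C first, that begins nearest to the start and within 10 bases of it. The run is marked as far as it fits into the line. The first group rose with SQ1 and has such a run at or near its start.
Rpl10a (GRCr8, chr20:6390518-6390547, plus strand): gaaaccttctgccttCTTTTCCggttcccg
Rpl9 (chr14:43247575-43247604, plus strand): gacgaaggacgttctCTCTTTgccccatct
Rpl14 (chr8:129163605-129163634, plus strand): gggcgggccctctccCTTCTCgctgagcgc
Rpl12 (chr3:36661925-36661954, plus strand): ggagcaacatccgtCTTTTCggctttcggt
Rps26 (chr7:1643390-1643419, minus strand): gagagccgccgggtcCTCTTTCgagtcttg
Rplp0 (chr12:46718376-46718405, minus strand): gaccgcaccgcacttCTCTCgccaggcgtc
Rplp1 (chr8:71290858-71290887, minus strand): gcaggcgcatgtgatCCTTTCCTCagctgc
The next genes also rose with SQ1 and have no such run within 10 bases of the annotated start. In the lines of Rps3 and Rplp2 a run begins further upstream, outside that window, and is not marked.
Rps19 (chr1:89608673-89608702, plus strand): cccgacttgtgcgcccgggaaaccccgtcg
Rps3 (chr1:163195762-163195791, minus strand): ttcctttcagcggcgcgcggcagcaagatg
Rplp2 (chr1:205975906-205975935, plus strand): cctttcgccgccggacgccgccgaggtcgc
The last pair fell with both drugs.
Rpl10 (chrX:157205835-157205864, plus strand): caggcgtgggagcgtCTCTTTTCCTCTggc
Rpl36al1 (chr6:93392244-93392273, minus strand): tccgacttccgctccatccgtCCCTTTCCT

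A C at the annotated start with at least 4 further C or T, read on the gene's own strand, was present in 23 of the 64 (35.9%). Among all 27457 promoters in the table the share was 2.63%. A run that began within 10 bases of the start, a window that allows for imprecise annotation, was present in 47 of the 64 (73.4%), against 28.8% of all promoters. Of 54 mitochondrial ribosomal protein genes, whose products form the separate ribosome of the mitochondrion, 3.70% had the run at the start. Within 10 bases of it, 37% of them had one. Of 13 other messages listed as TOP, 0 had the run at the start and 69.2% had one within 10 bases. Lack of a run at the annotated start therefore does not set a message outside the TOP class. Drug values by run are given with no test. The median log2 change with SQ1 was 0.092 in the 23 with a run at the start and 0.082 in the 24 with one only nearby. It was 0.13 in the 17 with none within 10 bases. With pravastatin those medians were 0.065, 0.073 and 0.10. Rpl10, which fell, has one of the longer runs shown, 12 pyrimidines from the start, and Rpl10a, which rose, has a run of 7.

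These genes were among the brightest on the arrays, and 75 of the 79 were in the brightest 5% of all genes tested, 36 of them in the brightest 1%. The median signal of the 79 on an array was 64326 to 108953 units in green and 168516 to 253545 in red. For all probes it was 588 to 663 in green and 790 to 1076 in red, where the local background was 306 to 315 and 339 to 348. No spot was saturated, and 71.3% to 86.2% of spots were well above background in green and 72.4% to 85.2% in red.

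On single arrays the sign of the treated over untreated ratio followed the dye. With SQ1 and the treated RNA in A555, the median log2 ratio of the 79 genes on the 4 arrays was -0.11, -0.15, -0.058 and -0.089 (mean -0.10 ± 0.040, SD, n = 4). With the dyes exchanged it was 0.19, 0.27, 0.35 and 0.32 (mean 0.28 ± 0.070, SD, n = 4). With pravastatin the same medians were -0.16, -0.16, -0.052 and -0.14 in the first orientation (mean -0.13 ± 0.051) and 0.23, 0.20, 0.36 and 0.30 in the second (mean 0.27 ± 0.072). All 8 arrays of the first orientation lay below 0 and all 8 of the second above it, with no overlap. A signal that stays with the dye enters the orientations with opposite signs and cancels in their mean, so each drug effect below is the mean over both orientations from a fit with a dye term. After the dye term was taken off, the array medians lay between -0.0023 and 0.15 with SQ1 and between 0.024 and 0.18 with pravastatin.

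**Figure D1:**
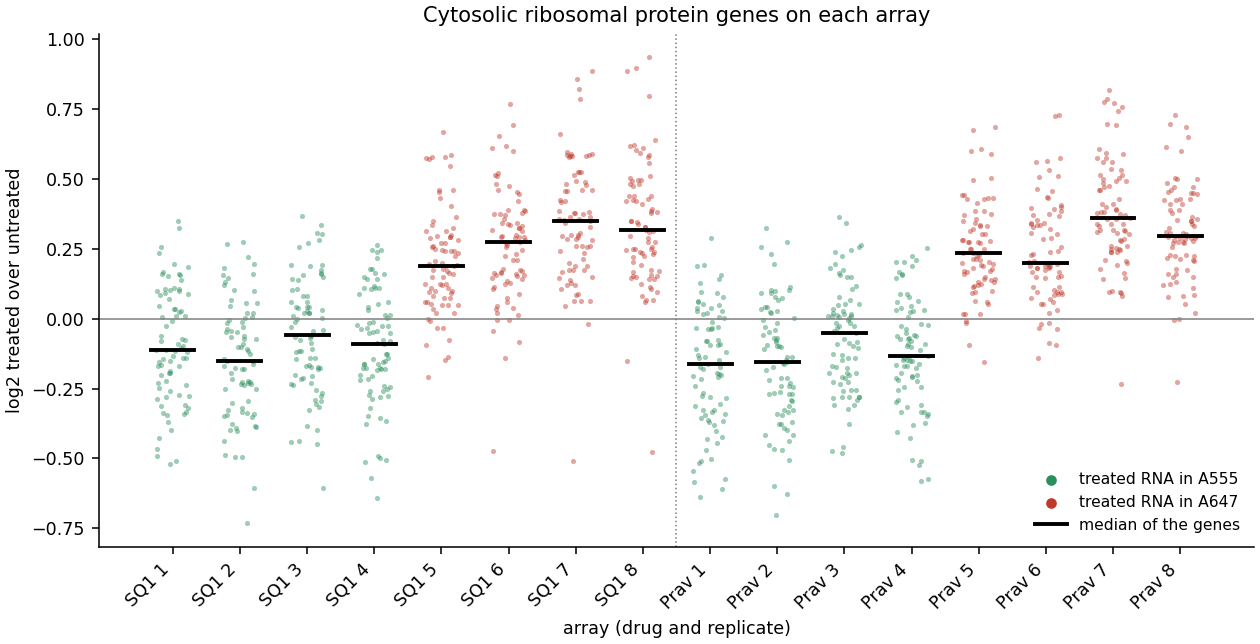
Log2 ratio of treated over untreated RNA for the 79 genes on each array. Each point is 1 gene, the bar is the median of the genes, and colour gives the dye of the treated RNA. The medians are below 0 on the 8 arrays with treated RNA in A555 and above 0 on the 8 arrays with it in A647.

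The orientation gap of a gene, its mean log2 ratio with treated RNA in A647 minus that with treated RNA in A555, had a median of 0.39 over the 79 genes and ran from -0.23 (Rps26) to 1.20 (Rplp2). It was above 0 for 70 of them and larger than both drug effects for 64. Other bright genes had a gap as well. Among the brightest 1% of genes, the median gap was 0.66 for the 36 ribosomal protein genes and 0.64 for the 172 others. In the band from 95% to 99% it was 0.25 for 39 ribosomal protein genes and 0.048 for 793 others. Drug values in the same bands are given as a description, with no test. In the brightest 1% the median log2 change of the others was -0.058 with SQ1 and -0.083 with pravastatin, against 0.078 and 0.066 for the ribosomal protein genes. In the next band the others had 0.069 and 0.036, against 0.11 and 0.10.

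**Figure D2:**
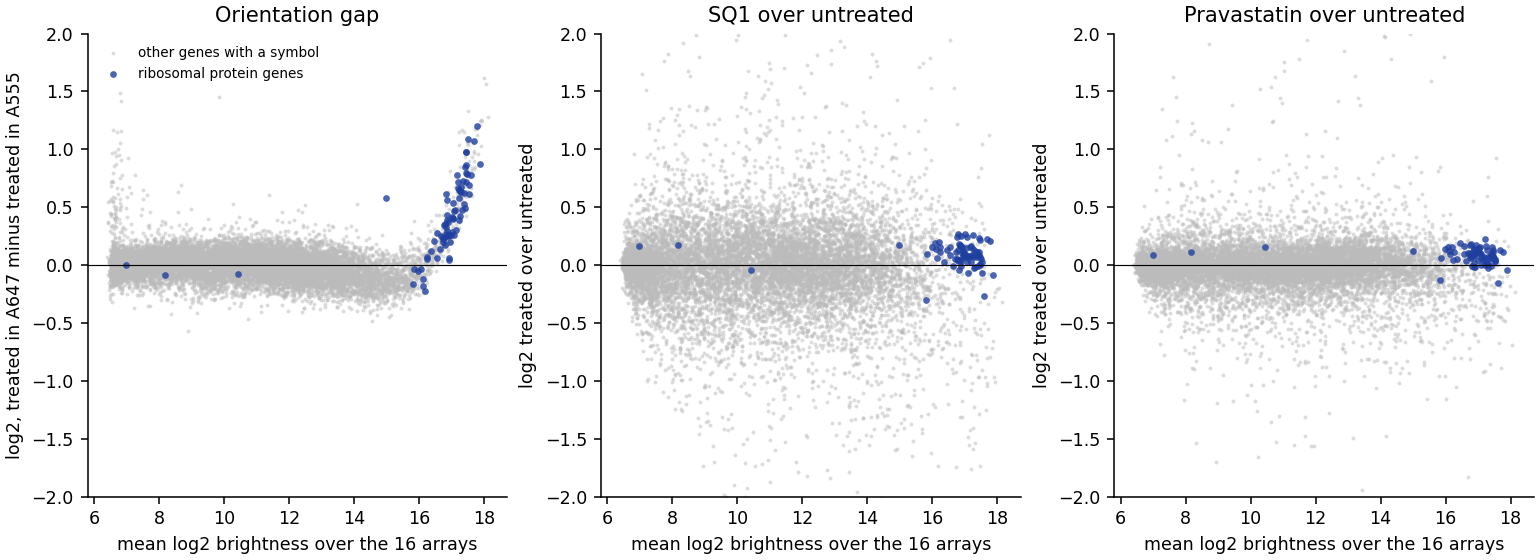
Orientation gap, SQ1 effect and pravastatin effect (log2, vertical axes, drawn between -2 and 2) against mean log2 brightness over the 16 arrays, for genes with a symbol. Ribosomal protein genes, in blue, lie mostly at the bright end. Over all genes tested, with or without a symbol, the median gap in the brightest 1% was 0.64 for other genes and 0.66 for ribosomal protein genes. In the band from 95% to 99% it was 0.048 and 0.25.

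Many of these genes rose by a small amount with SQ1. In all, 44 of the 79 rose, 4 fell and 31 did not pass the test, so that 60.8% were called. Over all genes tested 63.8% were called, 32.6% up and 31.2% down, so the share of ribosomal protein genes called was near that background, and their split between up and down was not. Among other genes as bright, more were called with SQ1: 82.1% in the band from 95% to 99% and 81.4% in the brightest 1%. The test was limma's moderated test with Benjamini-Hochberg adjustment over all 20782 genes at 0.05. The median log2 change was 0.092 over the 79 and 0.0073 over all genes. On its brightest probe, no ribosomal protein gene rose by more than 20.8%, a log2 change of 0.27. Some dimmer probes gave larger rises, among them second probes of Rps4y2 (0.34), Rps19 (0.32) and Rpl9 (0.31). On dye-adjusted values 27 genes were above 0 on 8 of 8 arrays and 3 were below 0 on all 8, where the shares over all genes were 24.6% and 23.6%. Within culture series 1 the fit called 27 up and 3 down, with a median of 0.059, and within series 2 it called 53 up and 2 down, with a median of 0.14. The share of all genes called within each series is not given here, so these counts have no background beside them.

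Of the 29 proteins of the 40S subunit, 13 rose with SQ1 and 0 fell (median log2 0.084, 16 at an unadjusted p under 0.05). Rps19, which is needed to mature the small subunit and is mutated in many cases of Diamond-Blackfan anaemia, had ratios of 0.099, 0.0038, 0.30 and 0.18 with treated RNA in A555 and of 0.30, 0.30, 0.49 and 0.51 with it in A647. All 8 were above 0, and the orientations overlapped at 0.30. The log2 change was 0.27 ± 0.035 (SE, n = 8, adjusted p = 2.2e-06). Rps3, which lines the channel where the message enters, had 0.25, -0.048, 0.17 and 0.14 in the first orientation and 0.43, 0.28, 0.35 and 0.38 in the second, with 1 array below 0. It rose by 0.25 ± 0.034 (adjusted p = 4.4e-06). Rps26, which sits where the message leaves, was the gene with the most negative gap: 0.35, 0.27, 0.37 and 0.26 in A555 and 0.048, -0.085, 0.19 and 0.24 in A647. It rose by 0.20 ± 0.032 (adjusted p = 1.9e-05).

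Rpsa, the small-subunit protein also known as the laminin receptor precursor, had a gap of only -0.052. Its SQ1 ratios were 0.14, 0.28, 0.19 and 0.12 in A555 and 0.24, -0.0061, 0.17 and 0.16 in A647, and the orientations overlapped. It rose by 0.16 ± 0.029 (adjusted p = 0.0001). Rps6, the substrate of the S6 kinases, rose by 0.13 ± 0.039 (adjusted p = 0.0087), with all 4 arrays below 0 in the first orientation and above 0 in the second. That call was lost with the scanner software's own processed signals (adjusted p = 0.067) and with arrays scaled to a common spread (0.60). It was also lost within culture series 1 (adjusted p = 0.17) and without a dye term (0.36). Rps4x did not pass the test (-0.041 ± 0.027, adjusted p = 0.20), and its paralog Rps4y2 rose by 0.17 ± 0.063 (adjusted p = 0.024). That last call, on the brightest probe, is lost when any of SQ1 replicates 2, 4, 5 and 7 is left out. A second probe of Rps4y2 gave a larger rise and is described with the probes below. Whether the probes of any of the 79 genes tell related genes, paralogs and pseudogenes apart was not tested, and values of close relatives such as Rps4x and Rps4y2 are uncertain for that reason.

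Of the 44 proteins of the 60S subunit, 26 rose with SQ1 and 3 fell (median log2 0.095). Rpl10a, which forms the mobile stalk near the exit site for transfer RNA, had 0.16, 0.16, 0.28 and 0.18 in A555 and 0.26, 0.22, 0.43 and 0.50 in A647. All 8 values were above 0 and the orientations overlapped slightly. The change was 0.27 ± 0.033 (SE, n = 8, adjusted p = 8.7e-07), or 20.8%. Rpl9 had 0.24, -0.044, 0.16 and 0.059 in the first orientation and 0.21, 0.48, 0.52 and 0.48 in the second, and rose by 0.26 ± 0.044 (adjusted p = 3.7e-05). Rpl14 was above 0 on all 8 arrays, at 0.0056, 0.019, 0.042 and 0.11 in A555 and 0.33, 0.33, 0.58 and 0.62 in A647. It rose by 0.25 ± 0.031 (adjusted p = 1.1e-06). Rpl12, at the base of the stalk that binds elongation factors, rose by 0.25 ± 0.035 (adjusted p = 5.5e-06), and 2 of its 8 arrays were below 0.

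The stalk of the large subunit is made of Rplp0, which anchors it, and the acidic proteins Rplp1 and Rplp2, which recruit the elongation factors. All 3 rose with SQ1 in the main fit. With arrays scaled to a common spread none of them was called (adjusted p = 0.52 for Rplp0, 0.47 for Rplp1 and 0.40 for Rplp2). Without a dye term none was called either (adjusted p = 0.30, 0.064 and 0.40). Rplp0 had -0.40, -0.35, -0.20 and -0.28 in A555 and 0.57, 0.69, 0.88 and 0.88 in A647, so that its gap of 1.07 was several times its drug effect of 0.22 ± 0.037 (adjusted p = 3.4e-05). Rplp2 had the largest gap of the 79, with ratios from -0.49 to -0.28 in A555 and from 0.67 to 0.94 in A647, and an effect of 0.21 ± 0.030 (adjusted p = 6.8e-06). Rplp1 rose by 0.16 ± 0.040 (adjusted p = 0.0017), a call also lost within culture series 1 (0.074, adjusted p = 0.18).

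The 4 genes that fell with SQ1 were Rpl36al1, Rpl10, Rpl41 and Rpl21. Rpl36al1, a gene of the Rpl36a family outside the core set, had -0.19, -0.0067, -0.29 and -0.32 in A555 and -0.15, -0.47, -0.51 and -0.48 in A647. All 8 arrays were below 0, and it fell by 18.9%, a log2 change of -0.30 ± 0.042 (adjusted p = 4.7e-06). Rpl36a itself did not pass the test (0.11 ± 0.053, adjusted p = 0.078). With replicate number as a random block it did (0.11, adjusted p = 0.047), as it did without SQ1 replicate 5 (0.15, adjusted p = 0.014) and under 4 other settings. Rpl10, a late-joining protein needed for the large subunit to become active, had -0.52, -0.73, -0.61 and -0.64 in A555 and -0.076, 0.27, 0.063 and 0.082 in A647. After the dye term was taken off, all 8 values were below 0, between -0.47 and -0.12, and it fell by 0.27 (SE 0.035, adjusted p = 2.4e-06). The Rpl10 value was not called with median centring in place of loess (-0.036), with arrays scaled to a common spread (-0.21) or without a dye term (-0.27, adjusted p = 0.093). Rpl41, the smallest protein of the ribosome, fell by 0.086 (SE 0.036, adjusted p = 0.045), and Rpl21 fell by 0.070 (SE 0.027, adjusted p = 0.030). Both had negative ratios on all A555 arrays and positive ones on all A647 arrays, and the fit calls 2 genes down in place of 4 when any of SQ1 replicates 2, 6 and 8 is left out.

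Pravastatin gave a similar count of small rises. Of the 79 genes, 42 rose, 2 fell and 35 did not pass the test, so that 55.7% were called, against 38.9% of all genes (19.4% up and 19.6% down). Among other genes as bright, more were called with pravastatin: 62.8% in the band from 95% to 99% and 68% in the brightest 1%. The median log2 change was 0.094, against 0.0018 over all genes. On dye-adjusted values 26 genes were above 0 on 8 of 8 arrays and 1 was below 0 on all 8, where the shares over all genes were 13.0% and 13.4%. Within culture series 1 the fit called 10 up and 1 down, with a median of 0.042, and within series 2 it called 49 up and 2 down, with a median of 0.12. For these series counts too, the share of all genes called is not given. Leaving out Pravastatin replicate 3, 4 or 7 brings the genes called down to 1.

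Of the 40S proteins, 13 of 29 rose with pravastatin and 0 fell (median 0.077). Rps3 had 0.19, 0.090, 0.028 and -0.072 in A555 and 0.30, 0.15, 0.37 and 0.30 in A647, so that 7 of 8 arrays were above 0 and the orientations overlapped. It rose by 0.17 ± 0.034 (adjusted p = 0.00062). Rps26 rose by 0.16 ± 0.032 (adjusted p = 0.00065) and Rpsa by 0.14 ± 0.029 (adjusted p = 0.0008), the latter with all 8 arrays above 0. Rps19 rose by 0.10 ± 0.035 (adjusted p = 0.030). Rps6 (0.070 ± 0.039, adjusted p = 0.17), Rps4x (-0.011 ± 0.027, adjusted p = 0.80) and Rps4y2 (0.12 ± 0.063, adjusted p = 0.14) did not pass the test. Rps6 passed within culture series 2 (0.17, adjusted p = 0.0015), and Rps4y2 passed without Pravastatin replicate 6 (0.17, adjusted p = 0.031) and with the mean of its probes (0.16, adjusted p = 0.0036). Both also passed in the value table as labelled, but its pravastatin columns match SQ1 scanner data.

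Of the 60S proteins, 26 of 44 rose with pravastatin and 1 fell (median 0.096). Rpl13 had the largest rise, with ratios of -0.20, -0.042, -0.090 and -0.26 in A555 and 0.44, 0.46, 0.79 and 0.68 in A647. The orientations lay on opposite sides of 0, and the drug effect was 0.22 ± 0.041 (SE, n = 8, adjusted p = 0.00027), or 16.7%. Rpl29, whose orientations hardly differed (gap 0.065), was above 0 on all 8 arrays, from 0.038 to 0.22 in A555 and from 0.12 to 0.26 in A647. It rose by 0.16 ± 0.029 (adjusted p = 0.00025). Rpl10a (0.18 ± 0.033, adjusted p = 0.00029) and Rpl18 (0.17 ± 0.026, adjusted p = 3e-05) were above 0 on 7 of 8 arrays each. Rpl9 and Rpl12 rose by 0.16 each (adjusted p = 0.0065 and 0.0015). Rpl3, which lies at the peptidyl transferase centre, rose by 0.13 ± 0.037 with pravastatin (adjusted p = 0.012). That call was lost with arrays scaled to a common spread (0.017), within culture series 1 (0.042) and without a dye term (adjusted p = 0.25). The SQ1 value of Rpl3 was 0.066 ± 0.037 (adjusted p = 0.13). That SQ1 value passed with culture series as a term (adjusted p = 0.031), within series 2 (0.14) and with median centring (0.28). It also passed in the value table as labelled (0.15), but the SQ1 columns there match pravastatin scanner data.

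Rpl22l1, the paralog that can stand in for Rpl22 in the large subunit, had pravastatin ratios of -0.051 to 0.17 in A555, with 2 of 4 below 0, and of 0.15 to 0.57 in A647. It rose by 0.19 ± 0.043 with pravastatin (adjusted p = 0.0021) and by 0.13 ± 0.043 with SQ1 (adjusted p = 0.013). Rpl22 rose by 0.10 ± 0.024 with pravastatin (adjusted p = 0.0025), and its SQ1 value was 0.054 ± 0.024 (adjusted p = 0.060). That SQ1 value passed the test with loess drawn without the ribosomal protein genes (adjusted p = 0.021), without background subtraction (0.034), with the mean of its probes (0.015), with median centring and in the value table as labelled. In the stalk, Rplp0 rose by 0.13 ± 0.037 and Rplp2 by 0.11 ± 0.030 with pravastatin (adjusted p = 0.0089 and 0.0052), directions that turned to -0.083 and -0.043 when arrays were scaled to a common spread. Rplp1 had -0.016 ± 0.040 (adjusted p = 0.80). The 2 genes that fell were again Rpl10, by 0.16 (SE 0.035, adjusted p = 0.0017), and Rpl36al1, by 0.13 (SE 0.042, adjusted p = 0.023). The Rpl10 call was lost with median centring (-0.046), on scaled arrays (-0.41, adjusted p = 0.087) and without a dye term (adjusted p = 0.42). Ratios of Rpl10 were negative on all A555 arrays and positive on all A647 arrays. For Rpl36al1, 7 of 8 arrays were below 0.

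**Figure D3:**
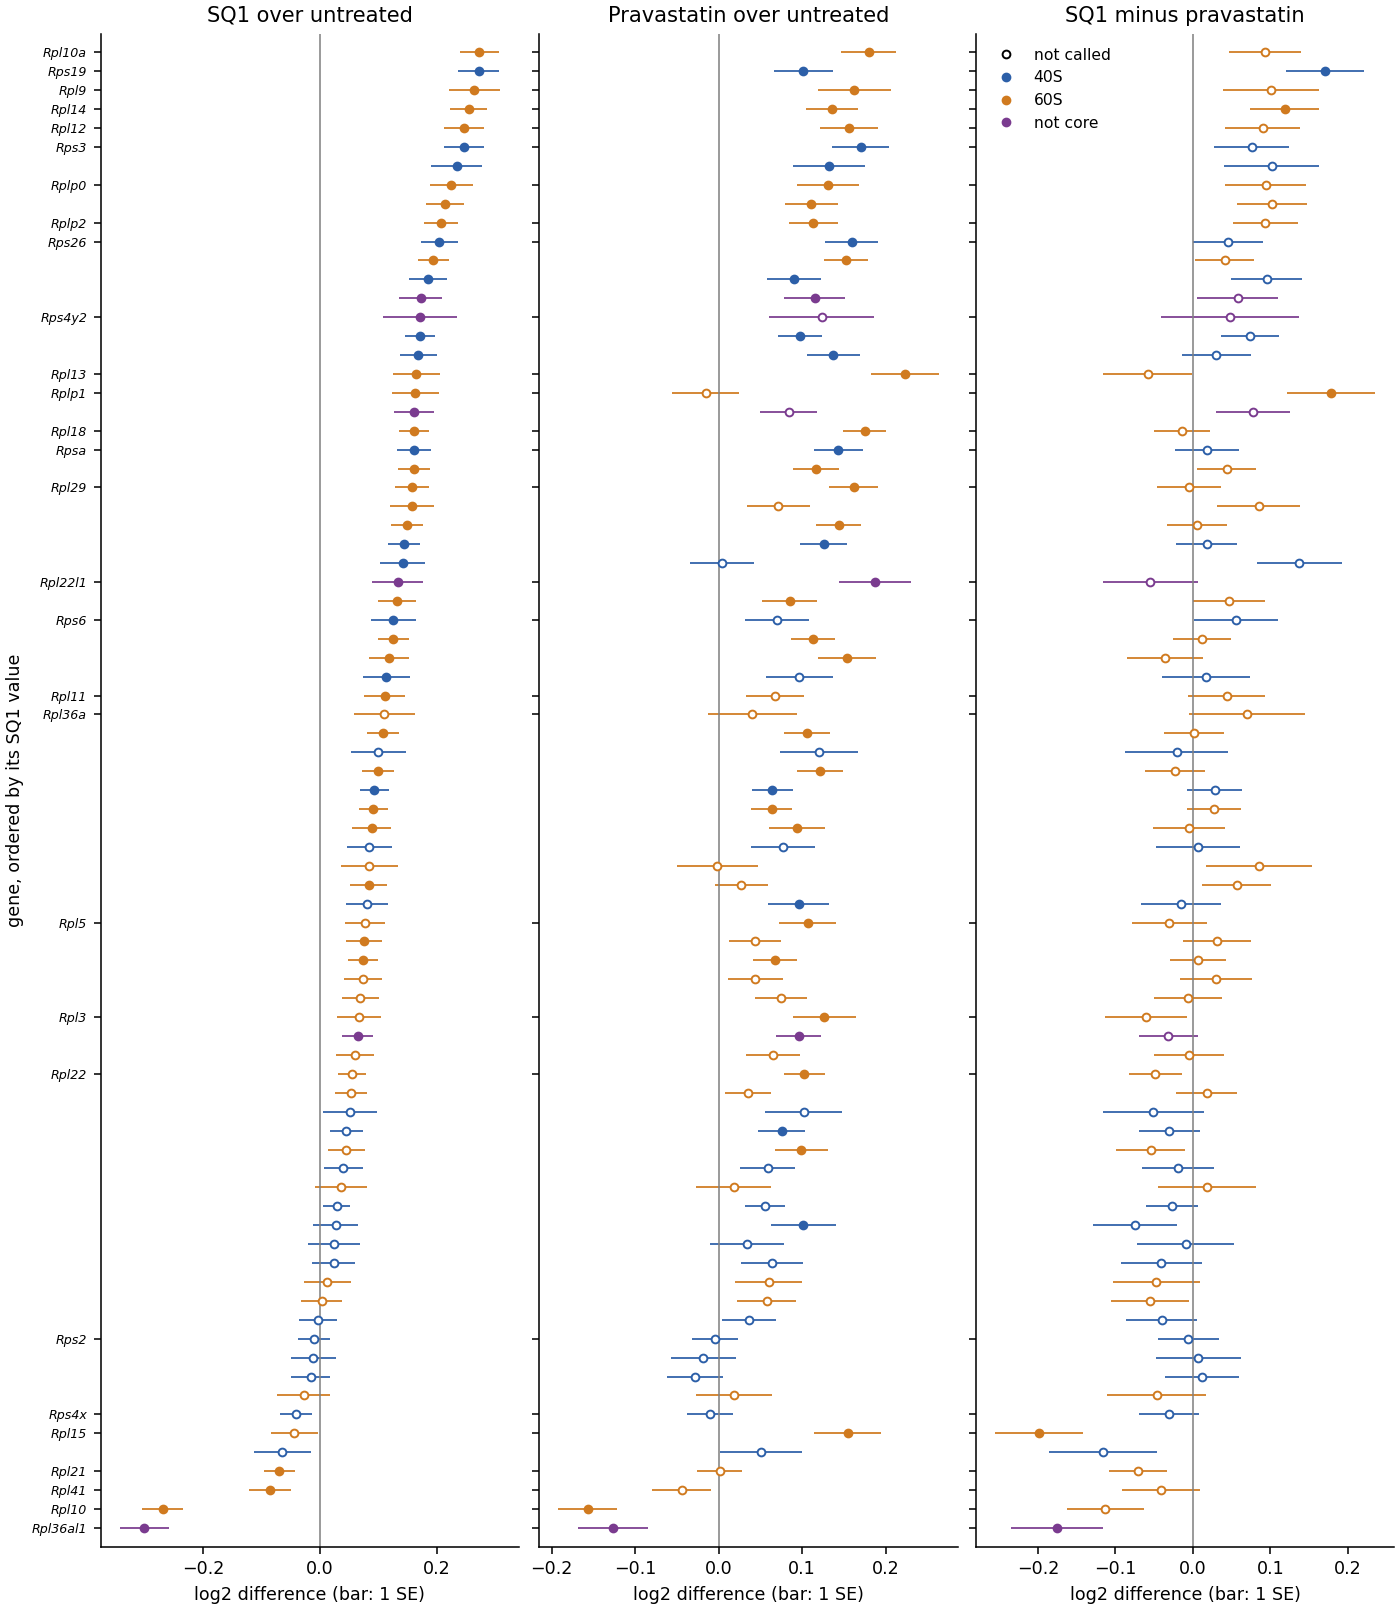
Log2 difference of each of the 79 genes with its standard error for SQ1 over untreated, pravastatin over untreated and SQ1 minus pravastatin, ordered by the SQ1 value, with 29 of the genes labelled by symbol. Filled points passed an adjusted p of 0.05, and colour gives the subunit. In the first panel 44 genes are called above 0 and 4 below, in the second 42 and 2, and in the third 3 and 2.

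By culture number the drugs share their untreated cultures, so their calls are given side by side and no overlap is tested. Both drugs called 34 genes up and 2 down (Rpl10 and Rpl36al1), 12 were called only with SQ1, 8 only with pravastatin and 23 with neither, and 0 were called in opposite directions. The direct difference, SQ1 minus pravastatin in the same fit, was called for 5 of the 79, which is 6.33%, against 37.9% of all genes (18.4% up and 19.5% down). The median difference was 0.0070, and the doses differed, at 100 µM and 30 µM. For the 74 genes not called, the 95% intervals of the difference reached from -0.26 to 0.25, with a median half-width of 0.10. With replicate number as a fixed block, which compares arrays of the same untreated culture number, 9 genes were called up and 4 down, and with it as a random block 7 and 3. Within culture series 1 the counts were 0 and 0, and within series 2 they were 5 and 3. Shares of all genes called with a block or within a series are not given here.

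Rpl15 was lower with SQ1 than with pravastatin. Its SQ1 ratios were 0.15, -0.048, 0.059 and -0.089 in A555 and -0.21, -0.046, -0.021 and -0.15 in A647, and its pravastatin ratios 0.051, 0.073, 0.34 and 0.20 and then -0.010, 0.089, 0.34 and 0.15. The difference was -0.20 ± 0.057 (adjusted p = 0.0097), with overlap between the drugs on single arrays. Its call was lost with median centring (-0.17, adjusted p = 0.10) and within culture series 1 (-0.088, adjusted p = 0.39). Rpl15 is also one of the dimmer of the 79, and its orientation gap was -0.075. Rpl36al1 was lower with SQ1 by 0.18 on the log2 scale (difference -0.18 ± 0.059, adjusted p = 0.026), a call that is lost when any of SQ1 replicates 3, 4, 7 and 8 or Pravastatin replicate 2 is left out.

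Higher with SQ1 were Rplp1, Rps19 and Rpl14. Rplp1 had -0.14, -0.10, 0.079 and -0.034 and then 0.22, 0.32, 0.48 and 0.48 with SQ1, and -0.34, -0.16, -0.043 and -0.15 and then 0.12, -0.038, 0.26 and 0.23 with pravastatin. Each SQ1 array was above the pravastatin array of the same number, and the difference was 0.18 ± 0.057 (adjusted p = 0.019). That call was lost with the scanner software's own processed signals (adjusted p = 0.096) and with arrays scaled to a common spread (0.30). It was also lost within culture series 1 (adjusted p = 0.061) and without a dye term (0.21). For Rps19 the difference was 0.17 ± 0.050 (adjusted p = 0.011) and for Rpl14 0.12 ± 0.044 (adjusted p = 0.043). The Rps19 call was lost on scaled arrays (adjusted p = 0.29), within culture series 1 (0.14) and without a dye term (0.14). The call for Rpl14 is lost when any of SQ1 replicates 3, 4, 7 and 8 or Pravastatin replicates 1, 2, 3, 5, 6 and 8 is left out. In the value table, read as its columns are labelled, the sign of all 5 differences was the opposite.

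**Figure D4:**
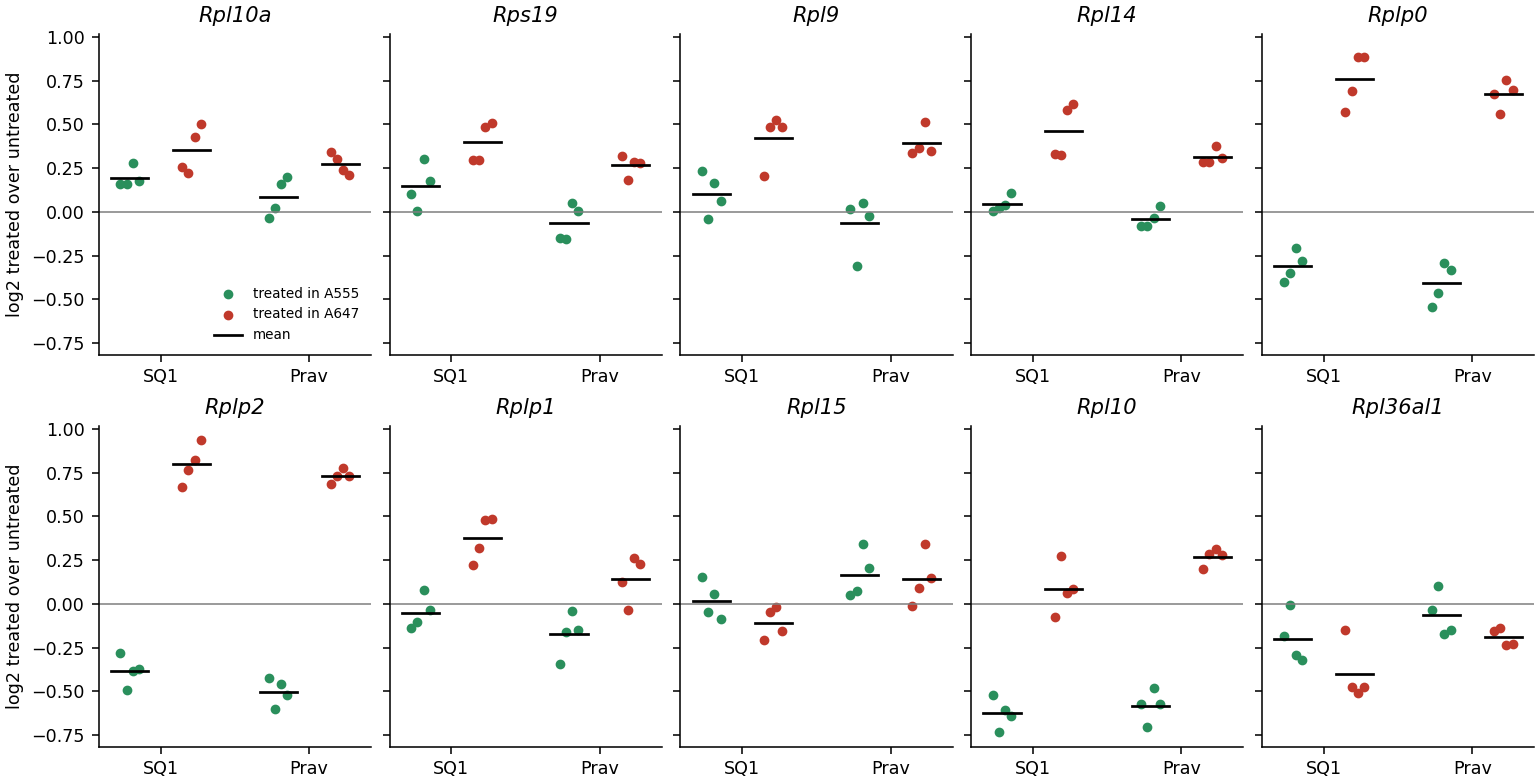
Log2 ratio of treated over untreated RNA on each array for 10 genes, by drug and dye of the treated RNA, with the mean of each set of 4. Rpl10a with SQ1 and Rpl36al1 with SQ1 lie on one side of 0 on all 8 arrays, whereas the points of Rplp2 split by dye around 0.

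Several genes had more than 1 probe, which gives a second measurement of the same RNA by another stretch of sequence. All 22962 probes were fitted on their own for this, a fit added after the data were seen. Of 47 such genes, the second brightest probe had the same sign as the brightest in 43 with SQ1 and in 45 with pravastatin. Both probes were called the same way for 28 and 19 genes, and a called first probe never met a second of opposite sign (0 and 0 genes). The 2 further probes of Rps19 gave 0.32 and 0.30 with SQ1, beside 0.27 for the brightest, and 0.13 and 0.14 with pravastatin, beside 0.10. A second probe of Rpl10 gave -0.16 with SQ1 and -0.11 with pravastatin, both called (adjusted p = 0.00043 and 0.013). Rps2 was a gene whose probes differed: its brightest gave -0.0099 with SQ1 (adjusted p = 0.77), whereas the other 3 gave 0.15, 0.12 and 0.099, all called. Rps4y2 had the largest range between its probes with SQ1 (0.17 on the log2 scale). Its brightest probe gave 0.17 with SQ1 and 0.12 with pravastatin, the latter not called. Its second probe gave 0.34 and 0.21, both called (adjusted p = 7.7e-09 and 1.9e-05). Over all 140 probes of these genes, 86 were called up and 6 down with SQ1 and 77 up and 3 down with pravastatin. The share called among all 22962 probes is not given here.

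Because these genes are bright, the counts were set against other normalisations. The share of all genes called under each is not given here, so these counts have no background beside them. With the loess curve drawn without the ribosomal protein genes, 52 rose and 2 fell with SQ1 and 44 rose and 2 fell with pravastatin. With the scanner software's own processed signals, 36 rose and 4 fell with SQ1 and 47 and 2 with pravastatin. In that processing the orientations no longer lay on opposite sides of 0: the mean of array medians was 0.015 and 0.12 with SQ1 and 0.049 and 0.17 with pravastatin. With each array centred on its median and no curve, the dye split widened to -0.53 and 1.12 with SQ1, and 75 genes rose and 1 fell, with a median effect of 0.30. With arrays scaled to a common spread, the counts dropped to 15 up and 1 down with SQ1 and 23 and 1 with pravastatin, and the pravastatin median to 0.018. Without a dye term, a fit chosen after the data were seen, 21 rose and 1 fell with SQ1 and 15 and 0 with pravastatin. The median effect of the 79 was above 0 for both drugs under each of these settings.

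**Figure D5:**
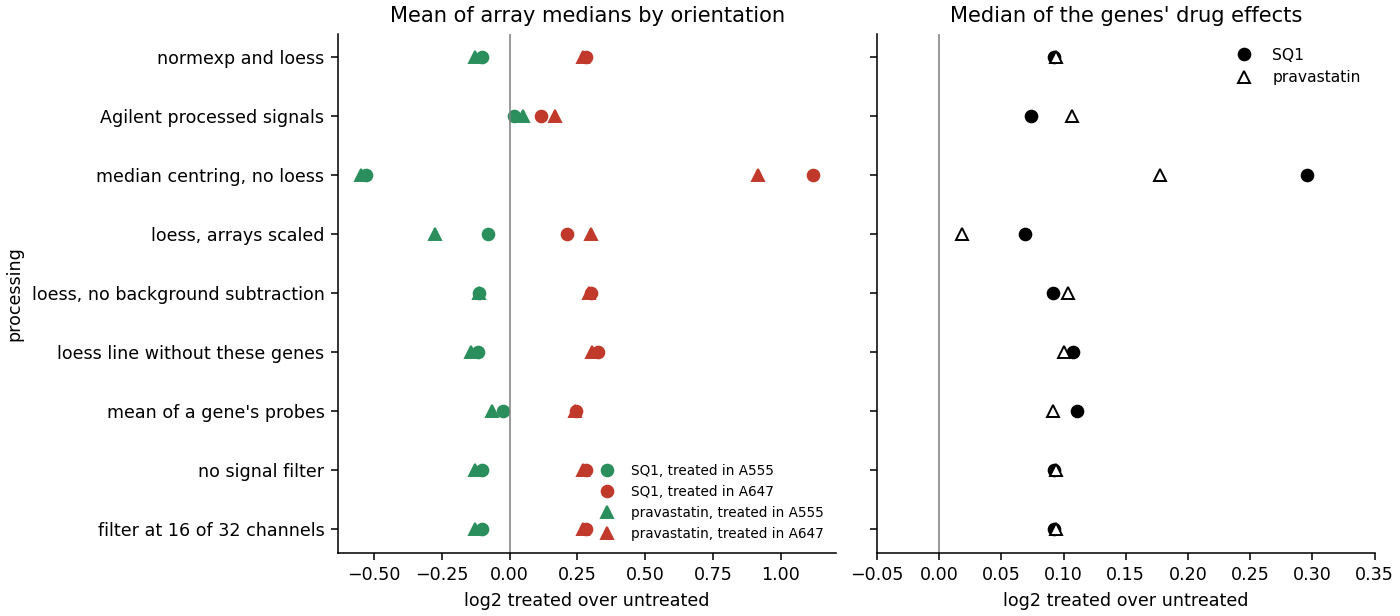
Left, mean of the array medians of the ribosomal protein genes by drug and dye of the treated RNA, and right, the median of their drug effects, both in log2 treated over untreated, under 9 ways of processing. The distance between red and green points changes with the processing, from 0.015 and 0.12 for SQ1 with the scanner's processed signals to -0.53 and 1.12 with median centring, and all points on the right are above 0.

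Genes linked to the ribosome were described from lists chosen with earlier results of these data known. Among ribosomal proteins that the symbol rule leaves out, Fau, which makes Rps30 as a fusion with a ubiquitin-like protein, fell with SQ1 (-0.15 ± 0.027, adjusted p = 6.6e-05) and with pravastatin (-0.19 ± 0.027, adjusted p = 2.2e-05). Rack1, a scaffold on the small subunit, rose with SQ1 (0.15 ± 0.030, adjusted p = 0.0002) and did not pass the test with pravastatin (0.058, adjusted p = 0.14).

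Of 19 other TOP messages, which code mainly for translation factors and include Fau and Rack1, 13 rose and 3 fell with SQ1 (84.2%, median 0.14), and 7 rose and 3 fell with pravastatin (52.6%, median 0.058). The largest rises with SQ1 were Hnrnpa1, an RNA-binding protein (0.46 ± 0.041), and Eef1b2, an exchange factor for elongation factor 1 (0.30 ± 0.037). Tpt1 and Eef1a1, the elongation factor that brings transfer RNA to the ribosome, fell with both drugs (SQ1 -0.20 and -0.20, pravastatin -0.18 and -0.16). Hnrnpa1 also led with pravastatin (0.71 ± 0.041) and was one of 3 genes of the list with a called difference (-0.25 ± 0.058, adjusted p = 0.0023).

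Of 56 ribosome biogenesis genes, which process ribosomal RNA and assemble subunits, 41 rose and 4 fell with SQ1 (80.4%, median 0.18). With pravastatin 18 rose and 1 fell (33.9%, median 0.059). The difference was called for 20 up and 2 down (39.3%, median 0.12), where it was called for 37.9% of all genes. Ebna1bp2 and Wdr12, both large-subunit assembly factors, rose by 0.47 ± 0.050 and 0.46 ± 0.058 with SQ1 and by 0.26 and 0.16 with pravastatin. Nolc1, a nucleolar phosphoprotein, was 0.31 ± 0.056 higher with SQ1 than with pravastatin (adjusted p = 0.00023), and Bop1 0.30 ± 0.070 (adjusted p = 0.0022). Among those that fell with SQ1 were Taf1b, a factor for RNA polymerase I (-0.25, adjusted p = 1.1e-05), and Nmd3, the export adaptor that Rpl10 helps to release (-0.15, adjusted p = 3.8e-05).

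Of 66 mitochondrial ribosomal protein genes, 23 rose and 21 fell with SQ1 (66.7%, median 0.010), and 16 rose and 11 fell with pravastatin (40.9%, median 0.020). They were called about as often as all genes and in both directions. The difference was called in 24 of them, 14 up and 10 down (36.4%). Mrps27 rose by 1.03 ± 0.065 with SQ1 and by 0.91 ± 0.065 with pravastatin, and Mrpl15 fell with both drugs (-0.27 ± 0.036 and -0.16 ± 0.036).

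Of 18 genes of mTORC1 and Myc control, 8 rose and 4 fell with SQ1 (66.7%, median 0.046), and 3 rose and 3 fell with pravastatin. Mnt, a repressor that competes with Myc for Max, rose by 0.50 ± 0.029 with SQ1 and by 0.39 with pravastatin, and Pdcd4, an inhibitor of translation initiation, fell (-0.48 ± 0.053 and -0.24). Myc itself, named after its values were seen, had 0.028 and 0.053 (adjusted p = 0.52 and 0.26). Of 5 p53 genes, the pathway that free Rpl5 and Rpl11 can activate by binding Mdm2, 3 rose and 1 fell with SQ1. Bax rose by 0.55 ± 0.046 and Ccng1 by 0.52 ± 0.051 with SQ1, and Cdkn1a fell (-0.29, adjusted p = 6.8e-10). Rpl5 and Rpl11, also named after their values were seen, had 0.076 (adjusted p = 0.061) and 0.11 (adjusted p = 0.010) with SQ1.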

How the data were processed

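Log2 ratios of treated over untreated RNA were obtained from 16 two-colour Agilent arrays, whose scanner files were made with Agilent Feature Extraction 10.7.1.1, per the file headers, which name the probe build rn4. The deposited signals and backgrounds are median spot intensity in arbitrary units. The authors' deposited value table holds log2 treated over untreated, with centring unstated and column medians from -0.061 to 0.10. Its columns matched scanner data of equal number from the opposite drug group (correlation 0.999 to 1.00 over 16 columns, against 0.45 to 0.56 with their own label), and it served only as an alternative. The scanner's processed signals are intensity after its own background subtraction and dye normalisation, and the log10 ratio column is red over green, per the file headers.

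Computation used limma 3.58.1 in R 4.3.3, with jsonlite 2.0.0, statmod 1.5.0 and version 1.17.8 of data.table. Background was removed by normexp with an offset of 50, ratios were normalised by within-array loess with the 1377 control spots at weight 0, and the 42877 other spots were averaged to 30367 probes. The plan named mean signals, but the columns used hold medians. Up to 28 non-uniform spots per array were left out, and all 79 genes had a value on all 16 arrays. A probe was kept if 6 or more of its 32 channels were well above background (22962 probes), and the brightest stood for a gene. RefSeq accessions in the files were named through the GRCr8 annotation, which named 17998 probes and left 12369 unnamed, each counted as a gene of its own. The fit had a term for each drug and for dye orientation, and was tested on simulated data. The number of arrays limits precision, and no counts exist.

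Same-numbered arrays of the drugs carry the same untreated culture number, and the pairing rests on those numbers. Residuals of the 8 pairs correlated at 0.14 to 0.63. The same-numbered array was the best match in 5 of the 8, so the correlations alone do not settle the pairing. The members, lists and tests were chosen with earlier results of these data known. Named are the 10 largest changes among called genes per comparison, paralogs outside the core set with their core gene, Rplp0, Rplp1, Rplp2, Rpsa, Rps6, Fau and Rack1, and from the other lists up to 2 of the largest changes in each direction, and some genes that the rule names are not reported here. Alternatives were other normalisations, filters and probe rules, blocks, single culture series and each array left out.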

Additional observations from a re-analysis of the deposited data

Results flagged for a closer look

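The values of the named genes and the median of all 79, before and after the dye term was taken off, were searched for an array standing far from the others of its drug, in 104 sets of 8 arrays. Chance marks about 1 in 20 sets, and 2 were marked, both for Pravastatin replicate 2 in dye-adjusted values. For Rpl9 that array was at -0.12, where the nearest was at 0.14 and the far end at 0.32, a gap of 0.59 of the whole range. For Rps4x it was at -0.18, where the nearest was at -0.018 and the far end at 0.074, a gap of 0.64 of the range.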

How the results depend on the processing

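Leaving out each array in turn, the fit called 38 to 52 genes up and 2 to 4 down with SQ1 (median 0.087 to 0.12), 30 to 43 up and 1 to 2 down with pravastatin (0.078 to 0.097), and 2 to 7 up and 1 to 3 down for the difference (-0.0016 to 0.024). The difference had 7 up without SQ1 replicate 5 and 1 down without SQ1 replicate 3, 4, 7 or 8. With processed signals the difference had 1 up and 4 down, and the array medians were 0.015 and 0.12 (SQ1, treated in A555 and in A647) and 0.049 and 0.17 (pravastatin). Median centring gave 75 up and 1 down (median 0.30) with SQ1, 0 down (0.18) with pravastatin, 6 up and 0 down (0.12) for the difference, and array medians of -0.53, 1.12, -0.55 and 0.92. Scaled arrays gave 15 and 1 with SQ1, 23 and 1 (median 0.018) with pravastatin, 0 and 1 for the difference, and -0.28 for pravastatin in A555, where 1 array was at -0.75. Loess without these genes gave 2 down with SQ1, and no background subtraction gave 4 down for the difference. The mean of a gene's probes gave array medians of -0.026 and -0.066 in A555. The replicate block gave 7 up for the difference when random (correlation 0.39) and 9 up and 4 down when fixed, and the random block changed no count of a single drug by over 1.5 times. Culture series as a term gave 6 up for the difference. Series 1 alone gave 27 up with SQ1, 10 up and 1 down with pravastatin and 0 and 0 for the difference. Series 2 alone gave 2 down with SQ1 (median 0.14) and 5 up for the difference. Without a dye term, added after the data were seen, there were 21 up and 1 down, 15 and 0, and 0 and 1. The value table as labelled gave 2 down with SQ1, 4 down with pravastatin, 1 down for the difference, and array medians of 0.041, 0.15, -1.17e-05 and 0.16. Shares of all genes called under these settings are not given here.

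Signs turned for Rps4x with SQ1 under median centring (0.17), and for Rplp0 (-0.083) and Rplp2 (-0.043) with pravastatin on scaled arrays. In the value table as labelled, where the drugs are exchanged, Rplp1 was at -0.0044 with SQ1 and 0.16 with pravastatin, and the differences were 0.23 (Rpl15), -0.17 (Rplp1), 0.17 (Rpl36al1), -0.16 (Rps19) and -0.12 (Rpl14). Apart from that exchange, the cause of these changes was not tested. On scaled arrays, named genes lost their call with the sign kept in 10 cases with SQ1, 4 with pravastatin and 4 for the difference. Without a dye term these counts were 7, 8 and 4, and within series 1 they were 3, 8 and 5. The filters on dim probes kept every count within 1.5 times. In 64 of the 79 genes both drug effects are smaller than the dye difference.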
